A study of Homo sapiens with 16 samples.

Results

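The genes described here encode scaffold, adhesion and polarity proteins of the tight junction, in SW480 and SW620 human colon cancer cells that carried a Wnt-blocking construct, dnLEF1, or GFP. They were taken as the 9 rows of the count tables, out of 26485 genes, whose symbol is TJP1, TJP3, CGN, CGNL1, MPDZ, F11R, CXADR, PARD3 or PARD6B, and each symbol was found once. SW480 and SW620 are established lines from a primary colon tumour and a lymph node metastasis of the same patient, and both carry a truncated APC that leaves Wnt signalling high. The groups were SW480 dnLEF1, SW480 GFP, SW620 dnLEF1 and SW620 GFP, with 4 polyadenylated RNA libraries in each, all at passage 6 and with no further treatment. GFP was the mock control, which the labels call Wnt high. dnLEF1, labelled Wnt low, is a shortened LEF1 without its beta-catenin-binding region, so it can sit on Wnt target genes without activating them. No source used here gives the promoter that drives the construct, says whether a line was a clone or a pool, or ties replicates to separate cultures. The p-values below thus speak for the scatter among these libraries, and part or all of it could be technical.

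Tight junctions seal neighbouring epithelial cells near their apical border. Claudins and occludin form the seal, and on the inner side PDZ-domain scaffolds such as the zonula occludens proteins and the multi-PDZ protein encoded by MPDZ tie them to each other and to actin. Cingulin and paracingulin are plaque proteins that bind the zonula occludens scaffolds. Junctional adhesion molecule A (encoded by F11R) and the coxsackie and adenovirus receptor (CXADR) are immunoglobulin-like proteins that bridge cells and bind PDZ scaffolds from within. PARD3 and PARD6B belong to the PAR complex, which with an atypical protein kinase C sets the apical side and helps to place the junction. In the gut this machinery separates the lumen from the tissue below, and its parts are often displaced or lost in carcinoma.

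Gene counts ran from 17181204 to 26153506 per library. Values below are CPM (a gene's reads scaled to a common library size) on 1 scale for all 16 libraries, log2 changes are given ± SE and group means ± SD, and a gene is called where edgeR's quasi-likelihood test gave an adjusted p below 0.05 over all genes tested. LEF1 stood at 173 to 273 CPM in SW480 dnLEF1 libraries, against 48.8 to 52.9 CPM in SW480 GFP, and at 20.1 to 25.6 CPM in SW620 dnLEF1, against 2.82 to 3.92 CPM in SW620 GFP. AXIN2, a feedback target of the pathway, stood at 63.1 to 72.5 CPM in SW480 dnLEF1 and 542 to 567 CPM in SW480 GFP. In SW620 the AXIN2 ranges met, at 311 to 335 CPM with dnLEF1 and 313 to 348 CPM with GFP. SW620 GFP replicate 3 stood apart, with 50.5% of its total in lines that name no gene, against 20.0% to 24.3% in the other 15 libraries. Of 9 epithelial markers, EPCAM, KRT8, KRT18 and KRT19 were high in all 4 groups, and their list summed to 7090 to 8510 CPM in SW480 dnLEF1, 10700 to 12500 in SW480 GFP, 8530 to 10800 in SW620 dnLEF1 and 9940 to 12200 in SW620 GFP. KRT20 averaged between 0.0777 and 0.279 CPM over the 4 groups. CDH17 had no count in SW480 dnLEF1, against 6.69 CPM in SW480 GFP, 0.246 in SW620 dnLEF1 and 0.833 in SW620 GFP. CDX2 averaged 0.131 CPM in SW480 dnLEF1, 12.2 in SW480 GFP, 8.83 in SW620 dnLEF1 and 6.62 in SW620 GFP. VIL1 averaged 2.43, 35, 303 and 365 CPM in the same order of groups. CDH1, E-cadherin, averaged 39 CPM in SW480 dnLEF1 and 13.3 CPM in SW480 GFP, and 26.9 CPM in SW620 dnLEF1 and 65.1 CPM in SW620 GFP. Among markers of other cells, 8 fibroblast genes summed to 8.89 to 38 CPM, 6 endothelial genes to 0.553 to 3.89 CPM and 6 immune genes to 3.95 to 10.1 CPM over the 4 groups. PTPRC and CD3E had no count in SW480 dnLEF1 and in both SW620 groups. In the same immune list CD68 averaged between 1.99 and 4.83 CPM and LYZ between 1.24 and 3.63 CPM over the 4 groups. The synaptic gene SYT1 averaged between 47.1 and 149 CPM and made up most of a 4-gene neural list. The part of any of these in the results below was not tested.

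In SW480 these genes differed between dnLEF1 and GFP cells in both directions. Of the 9 members, 4 fell (MPDZ, CGNL1, CXADR and F11R), 3 rose (CGN, PARD3 and PARD6B) and 2 (TJP1 and TJP3) did not pass the test. Both immunoglobulin-like adhesion genes among the members fell and both polarity genes among them rose. Since it is not known whether the cells with each construct were clones or pools, the effect of dnLEF1 and a difference between the cells that received each construct cannot be told apart, and this holds for each fold below. Among all 14426 genes tested 48.5% were called, 24.2% higher and 24.4% lower, so a call by itself is common in this comparison. Called changes of at least 2-fold were found in 3 of the 9 members, against 10.9% of all genes. The median absolute log2 change was 0.67 over the members and 0.25 over all genes. The members were chosen with earlier results of these data known. These and the later set-wide shares thus describe the 9 genes alone and not tight junction genes at large. In the wider list described below, the largest SW480 change among the tested genes was that of RAB13 (log2 1.02 ± 0.07). The same 7 called members had no overlap between dnLEF1 and GFP libraries, a separation that 45% of all tested genes showed.

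In SW620 cells 1 of the members passed. F11R fell, and 7 others that were tested did not pass. With the replicate number added to the fit as a block, CGN and CGNL1 were also called lower and PARD3 higher. That fit called 1149 of all genes higher and 676 lower, against 804 and 324 without the block. MPDZ had no count and was not tested. Of all 13336 genes tested in this line 8.46% were called, 6.03% higher and 2.43% lower. Called changes of at least 2-fold made up 1.4% of all genes, and no member had one. The median absolute log2 change was 0.21 over the 8 tested members and 0.10 over all genes.

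**Figure D1:**
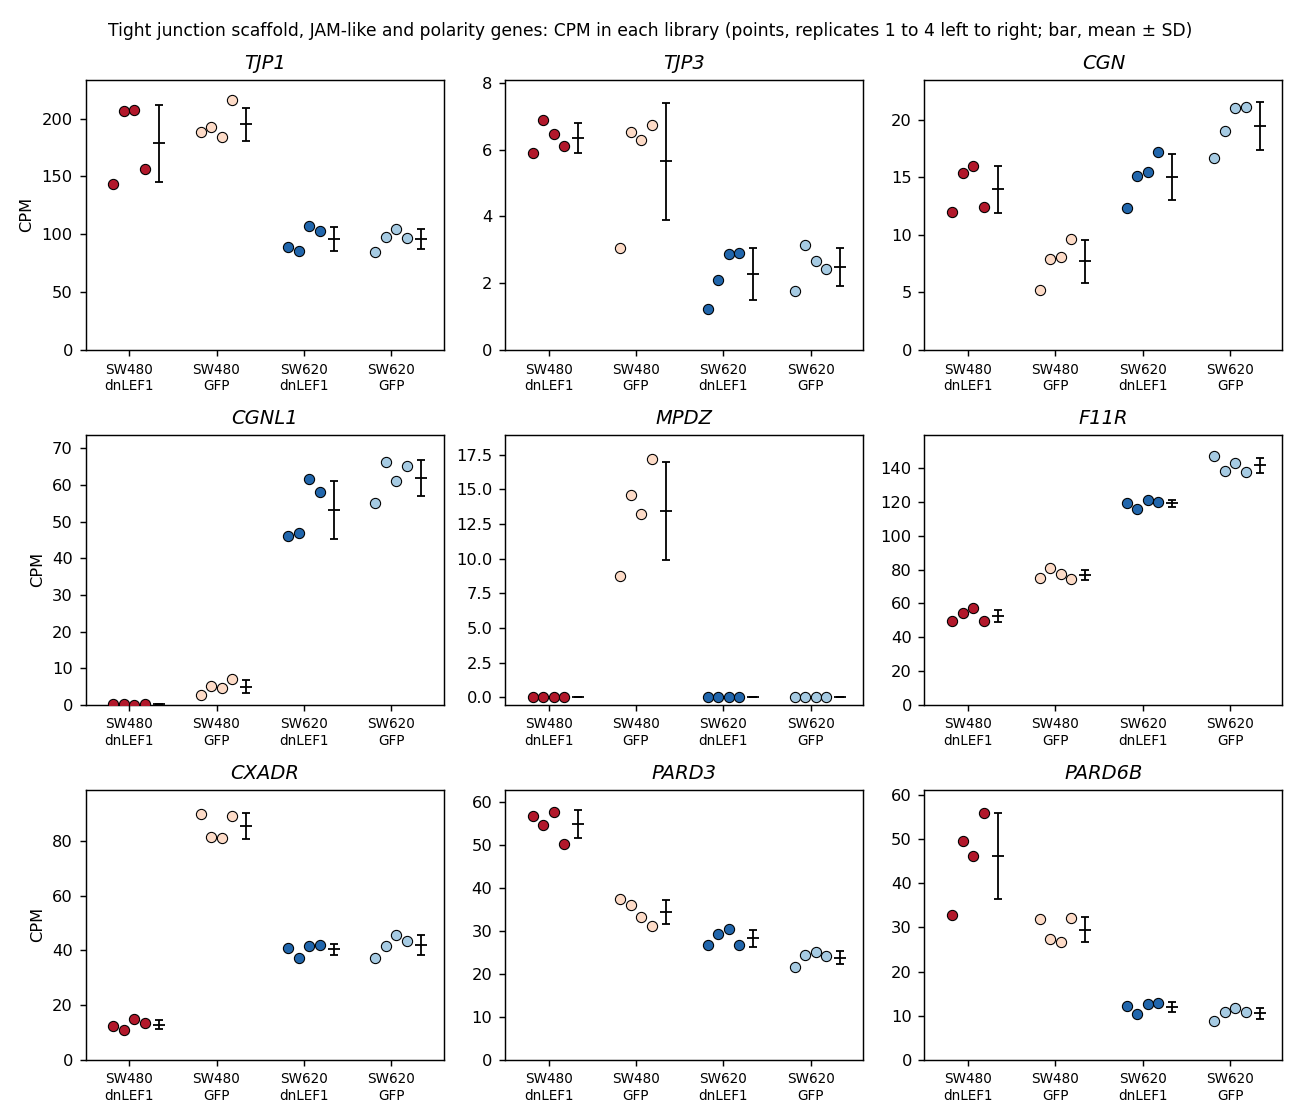
CPM of each member in each of the 16 libraries (vertical axis, linear) by group (horizontal axis). Points are libraries and the bar beside them is the mean ± SD of 4. MPDZ is seen in SW480 GFP alone, CXADR is lowest in SW480 dnLEF1 and highest in SW480 GFP, and CGNL1 is far higher in SW620.

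The largest changes in SW480 were those of MPDZ and CGNL1, and the smallest those of the scaffold genes TJP1 (log2 -0.13) and TJP3 (log2 0.18). MPDZ, whose product carries many PDZ domains that hold claudins and JAM-A, lies on chromosome 9 at 13105706 to 13279692 on the minus strand of hg38. It had 0 counts in all 4 SW480 dnLEF1 libraries, against 8.77, 14.6, 13.2 and 17.2 CPM (222, 327, 278 and 377 counts) in SW480 GFP replicates 1 to 4. It also had 0 counts in all 8 SW620 libraries. Set against a floor of 3 counts over the group, MPDZ was at least 407-fold lower in SW480 dnLEF1 than in SW480 GFP (edgeR adjusted p = 1.55e-08). A count of 0 in a group allows up to 0.0327 CPM in SW480 dnLEF1, and covers counting error only. In bulk RNA, fewer cells that express a gene and less RNA per cell cannot be told apart.

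CGNL1 encodes paracingulin and lies on chromosome 15 at 57375967 to 57550717 on the plus strand. It had 0.262, 0.212, 0.0842 and 0.0926 CPM in SW480 dnLEF1 replicates 1 to 4 (6, 5, 2 and 2 counts), against 2.80, 5.28, 4.52 and 7.07 CPM in SW480 GFP. The groups did not overlap, and the log2 change was -4.86 ± 0.39, a 29.0-fold fall (edgeR adjusted p = 1.39e-07). SW620 cells held far more of it, at 46.1, 46.8, 61.7 and 58.1 CPM with dnLEF1 and 55.2, 66.3, 61.0 and 65.1 CPM with GFP. There the ranges met and the change did not pass, at -0.22 ± 0.10 on the log2 scale (95% interval -0.41 to -0.03, edgeR adjusted p = 0.233). It passed with the replicate number as a block (edgeR adjusted p = 0.0385).

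The RefSeq start-site windows of these 2 genes are shown because the construct is a DNA-binding TCF/LEF factor and because they were the members with the fewest counts in SW480 dnLEF1. Windows run from 250 bases before to 50 after the start on GRCh38.p14, and were matched for 5 of the 9 members, in 9 windows (not F11R, CXADR, PARD3 or PARD6B). They were searched on both strands for 4 forms of the TCF/LEF core, the letters CTTTG followed by AA, AT, TA or TT, and capitals mark a match. The first is MPDZ at chr9:13279643-13279942 on the minus strand, the second CGNL1 at chr15:57376255-57376554 on the plus strand, and the third the most internal of 4 TJP1 windows, at chr15:29820625-29820924 on the minus strand, shown as the window with a match.
MPDZ: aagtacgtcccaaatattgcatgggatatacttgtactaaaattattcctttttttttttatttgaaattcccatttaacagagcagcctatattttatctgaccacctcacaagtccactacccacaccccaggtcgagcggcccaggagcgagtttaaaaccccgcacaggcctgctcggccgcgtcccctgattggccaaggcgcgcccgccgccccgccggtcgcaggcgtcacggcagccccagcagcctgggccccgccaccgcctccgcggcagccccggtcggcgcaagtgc
CGNL1: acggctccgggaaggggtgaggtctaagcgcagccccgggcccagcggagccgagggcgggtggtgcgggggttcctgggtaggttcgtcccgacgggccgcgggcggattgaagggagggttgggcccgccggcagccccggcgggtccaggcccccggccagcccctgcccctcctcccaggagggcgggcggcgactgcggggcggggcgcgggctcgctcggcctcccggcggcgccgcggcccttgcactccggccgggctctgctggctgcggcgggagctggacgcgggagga
TJP1: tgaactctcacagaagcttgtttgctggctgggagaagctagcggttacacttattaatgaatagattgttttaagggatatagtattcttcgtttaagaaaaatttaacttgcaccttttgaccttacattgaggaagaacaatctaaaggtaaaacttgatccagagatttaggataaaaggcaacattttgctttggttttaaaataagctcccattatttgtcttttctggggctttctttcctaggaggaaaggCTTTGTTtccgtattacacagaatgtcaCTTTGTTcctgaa
The letters searched were not in the MPDZ or CGNL1 windows. They were not in the CGN window, the 2 TJP3 windows or the other TJP1 windows either. The TJP1 window shown holds CTTTGTT 2 times, starting 9 and 37 bases after the start site. Of all 35116 RefSeq windows of this length 13.8% hold at least 1 match. The CGNL1 window has 39 CpG dinucleotides and a GC content of 80.0%, and 7.61% of all windows have more CpG. The MPDZ window has 24 CpG and a GC content of 58.7%, the same GC as the median window, which has 14 CpG. A match or its absence in these windows says nothing of where the factor binds in these cells.

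CGN encodes cingulin, the plaque partner most like paracingulin, and lies on chromosome 1 at 151510510 to 151538692 on the plus strand. It moved the other way in SW480. Its level was 12, 15.4, 16 and 12.4 CPM in SW480 dnLEF1, against 5.17, 7.87, 8.09 and 9.66 CPM in SW480 GFP. Every dnLEF1 library was above every GFP library, and the log2 change was 0.87 ± 0.16, a 1.82-fold rise (edgeR adjusted p = 0.000492). In SW620 it was 12.4, 15.1, 15.5 and 17.2 CPM with dnLEF1 and 16.7, 19.0, 21.0 and 21.1 CPM with GFP. These ranges met at their edge, and the log2 change of -0.37 ± 0.11 just missed the threshold (edgeR adjusted p = 0.0505). It passed with DESeq2 (adjusted p = 0.0217), and with edgeR on DESeq2's size factors (adjusted p = 0.0453), without the low-count filter (adjusted p = 0.0292), without SW620 GFP replicate 1 (adjusted p = 0.0140) or without SW620 dnLEF1 replicate 4 (adjusted p = 0.0326). It also passed with the replicate number as a block (edgeR adjusted p = 0.00181). With the spread estimated from all 16 libraries the edgeR adjusted p was 0.145, the highest of the alternatives.

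TJP1 encodes ZO-1, the scaffold that links claudins and occludin to actin, and lies on chromosome 15 at 29699367 to 29968915 on the minus strand. It was at 143, 207, 208 and 157 CPM in SW480 dnLEF1, against 188, 193, 184 and 216 CPM in SW480 GFP. Replicates 1 and 4 of dnLEF1 lay below every GFP library, and replicates 2 and 3 lay within the GFP range. The log2 change was -0.13 ± 0.11 (95% interval -0.34 to 0.09, edgeR adjusted p = 0.353). In SW620 it averaged 96.2 ± 10.4 CPM with dnLEF1 and 95.8 ± 8.43 CPM with GFP (SD, n = 4 each), a log2 change of 0.01 ± 0.08 (95% interval -0.16 to 0.17, edgeR adjusted p = 0.976).

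TJP3, which encodes the related scaffold ZO-3, lies on chromosome 19 at 3708362 to 3750813 on the plus strand and shares exon sequence with APBA3 on the other strand. The strand setting of the counting is not given in the sources used here, so how reads in the shared sequence were counted is not known. TJP3 was at 5.91, 6.90, 6.48 and 6.11 CPM in SW480 dnLEF1, against 3.04, 6.53, 6.28 and 6.75 CPM in SW480 GFP. GFP replicate 1 stood well below the rest, and the other GFP libraries lay among those of dnLEF1. The log2 change was 0.18 ± 0.20 (edgeR adjusted p = 0.473), and -0.03 without GFP replicate 1. In SW620, TJP3 averaged 2.27 ± 0.788 CPM with dnLEF1 and 2.49 ± 0.570 CPM with GFP (SD, n = 4 each), a log2 change of -0.11 ± 0.25 (95% interval -0.61 to 0.39).

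Both immunoglobulin-like adhesion genes fell in SW480, by very different amounts. CXADR, on chromosome 21 at 17513043 to 17593579 on the plus strand, was at 12.3, 10.9, 14.9 and 13.3 CPM in SW480 dnLEF1, against 89.8, 81.6, 81.2 and 89.4 CPM in SW480 GFP. The GFP libraries all lay far above the dnLEF1 libraries, and the log2 change was -2.73 ± 0.09, a 6.62-fold fall (edgeR adjusted p = 1.91e-11). In SW620 it averaged 40.4 ± 2.04 CPM with dnLEF1 and 42.0 ± 3.53 CPM with GFP (SD, n = 4 each), a log2 change of -0.05 ± 0.07 (95% interval -0.20 to 0.09, edgeR adjusted p = 0.759). The pseudogenes CXADRP2 and CXADRP3 have rows of their own in the tables, and reads that fit more than 1 place were not counted to any gene.

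F11R, which encodes JAM-A, was the member called lower in both lines by the main test. With the replicate number as a block CGNL1 was so as well (edgeR adjusted p = 0.0385 in SW620). F11R lies on chromosome 1 at 160995211 to 161021343 on the minus strand. In SW480 it was at 49.6, 54.4, 57.1 and 49.6 CPM with dnLEF1 and 75.1, 81.1, 77.6 and 74.6 CPM with GFP, a log2 change of -0.55 ± 0.07 (1.46-fold, edgeR adjusted p = 1.28e-05). In SW620 it was at 120, 116, 121 and 120 CPM with dnLEF1 and 147, 138, 143 and 138 CPM with GFP, a log2 change of -0.25 ± 0.05 (1.19-fold, edgeR adjusted p = 0.00504). The libraries of each line did not overlap between constructs. Its replicates had a coefficient of variation of 7.06% in SW480 dnLEF1, 3.86% in SW480 GFP, 1.95% in SW620 dnLEF1 and 3.11% in SW620 GFP.

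Both polarity genes among the members rose in SW480, unlike most polarity genes of the wider list described below. PARD3, the PDZ scaffold of the PAR complex, lies on chromosome 10 at 34109560 to 34815325 on the minus strand. It was at 56.8, 54.6, 57.8 and 50.4 CPM in SW480 dnLEF1, against 37.5, 36.1, 33.3 and 31.1 CPM in SW480 GFP, a log2 change of 0.67 ± 0.08 (1.59-fold, edgeR adjusted p = 5.55e-06). In SW620 it was at 26.7, 29.3, 30.4 and 26.7 CPM with dnLEF1 and 21.7, 24.4, 25.0 and 24.2 CPM with GFP. Here too every dnLEF1 library was above every GFP library, as in 13.7% of tested genes with no overlap either way. The log2 change of 0.25 ± 0.08 did not pass (95% interval 0.10 to 0.39, edgeR adjusted p = 0.0628). It passed with the replicate number as a block (edgeR adjusted p = 0.0234).

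PARD6B, the adaptor that joins the PAR complex to the kinase and to CDC42, lies on chromosome 20 at 50731580 to 50756795 on the plus strand. It was at 32.8, 49.6, 46.2 and 56.0 CPM in SW480 dnLEF1, against 31.9, 27.4, 26.7 and 32.1 CPM in SW480 GFP. Replicate 1 of dnLEF1 was barely above the highest GFP library, and the other 3 stood clear of it. The log2 change was 0.65 ± 0.13 (1.57-fold, edgeR adjusted p = 0.000945). In SW620 PARD6B averaged 12 ± 1.15 CPM with dnLEF1 and 10.6 ± 1.27 CPM with GFP (SD, n = 4 each), a log2 change of 0.20 ± 0.11 (95% interval -0.02 to 0.41, edgeR adjusted p = 0.363).

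**Figure D2:**
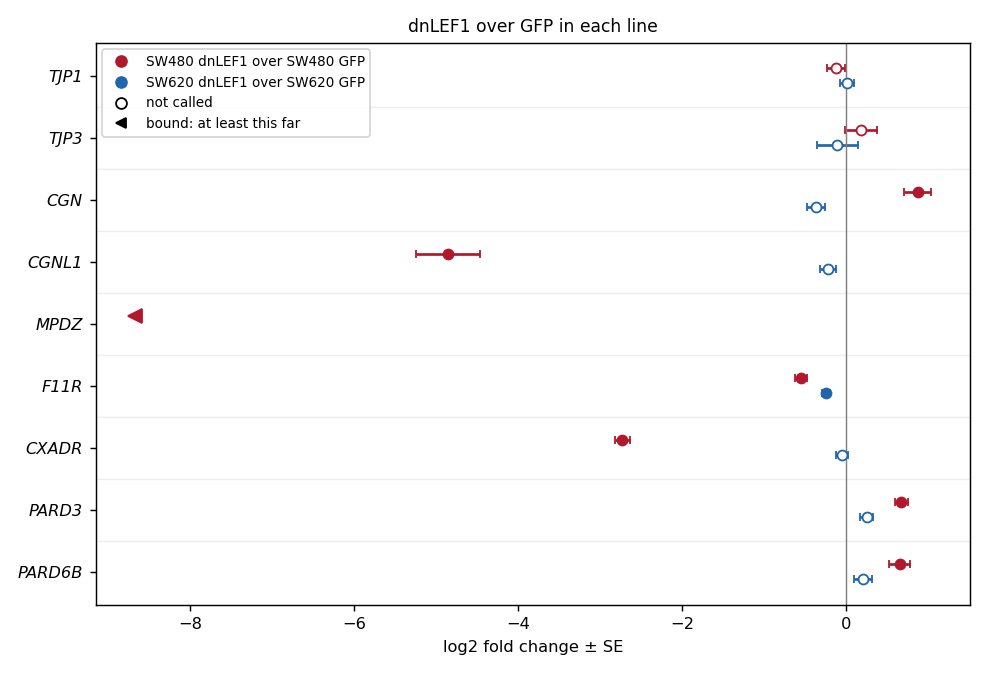
Log2 fold change ± SE of dnLEF1 over GFP for each member (rows) in SW480 (red, upper of each pair) and SW620 (blue, lower). Open circles did not pass the test and the triangle is a bound from the floor of 3 counts. The SW480 values run from below -4 for MPDZ and CGNL1 to 0.87 for CGN, and every SW620 value lies between -0.37 and 0.25.

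Whether the dnLEF1 effect differed between the lines was tested as an interaction over all 16 libraries, dnLEF1 over GFP in SW620 minus the same in SW480. It was called for 5 of the 8 members with counts in both lines, 3 with a positive and 2 with a negative difference. Of all 14926 genes 28.5% were called, 16.2% positive and 12.3% negative, and 8.47% were called with at least a 2-fold difference, as were 3 of the members. CGNL1 differed by 4.64 ± 0.42 on the log2 scale (edgeR adjusted p = 3.14e-08), CXADR by 2.68 ± 0.12 (edgeR adjusted p = 5.43e-13) and F11R by 0.30 ± 0.08 (edgeR adjusted p = 0.00668). All 3 were called lower in SW480, and of these only F11R was called lower in SW620 by the main test, without a replicate block. CGN differed by -1.23 ± 0.21 (edgeR adjusted p = 0.000132), with a rise in SW480 and a lower mean with dnLEF1 in SW620. PARD3 differed by -0.42 ± 0.11 (edgeR adjusted p = 0.00453), the change being smaller in SW620. PARD6B did not pass, at -0.45 ± 0.19 (edgeR adjusted p = 0.0808), nor did TJP1 at 0.14 ± 0.15 (edgeR adjusted p = 0.543) or TJP3 at -0.28 ± 0.35 (edgeR adjusted p = 0.590). PARD6B passed without SW480 dnLEF1 replicate 1 (-0.58, edgeR adjusted p = 0.00499) and without SW620 GFP replicate 1 (-0.52, edgeR adjusted p = 0.0466), and its adjusted p ran up to 0.177 over the 20 alternatives. MPDZ gave no value, since it had no count in SW620. The lines were also unlike in LEF1, at a mean of 246 CPM in SW480 dnLEF1 and 23.3 CPM in SW620 dnLEF1. AXIN2 changed by -2.98 ± 0.07 on the log2 scale in SW480 and by -0.06 ± 0.05 in SW620. The part of either in the line differences of the members was not tested.

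The lines themselves differed in these genes. With GFP, all 9 members were called between SW620 and SW480, 3 higher and 6 lower in SW620, against 78% of 14350 genes called, 37.7% higher and 40.3% lower. At least 2-fold differences were called in 7 of the 9, against 29% of all genes. Libraries of the lines did not overlap for 8 members, nor for 72.5% of all genes. The comparison shares its GFP libraries with the dnLEF1 comparisons above. SW620 GFP cells held 12.6-fold more CGNL1 (log2 3.66 ± 0.17, edgeR adjusted p = 8.45e-11), 2.52-fold more CGN (log2 1.34 ± 0.15) and 1.83-fold more F11R (log2 0.87 ± 0.05). They held less TJP1 (log2 -1.03 ± 0.07), TJP3 (-1.18 ± 0.24), CXADR (-1.03 ± 0.07), PARD3 (-0.54 ± 0.08) and PARD6B (-1.49 ± 0.10). For TJP3 the ranges met, at 1.77 to 3.14 CPM in SW620 GFP and 3.04 to 6.75 CPM in SW480 GFP. MPDZ was at least 376-fold lower in SW620 GFP, against a floor of 3 counts over the group.

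With dnLEF1, 7 of the 8 members tested were called between the lines, 3 higher and 4 lower in SW620, against 78.9% of 14397 genes, 38.7% higher and 40.2% lower. The same 7 had no overlap between the lines, as had 72.4% of all genes, and 5 were called with at least a 2-fold difference, against 33.5% of all genes. CXADR was higher in SW620 dnLEF1 than in SW480 dnLEF1 (log2 1.65 ± 0.10, edgeR adjusted p = 6.93e-10), the opposite of its direction between the GFP groups. CGNL1 stood 315-fold above SW480 dnLEF1 (log2 8.30 ± 0.21). F11R had a log2 difference of 1.18 ± 0.07, TJP1 of -0.89 ± 0.12, TJP3 of -1.46 ± 0.20, PARD3 of -0.96 ± 0.08 and PARD6B of -1.93 ± 0.14. CGN did not differ beyond its error, at 0.11 ± 0.12 (95% interval -0.13 to 0.35, edgeR adjusted p = 0.431).

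**Figure D3:**
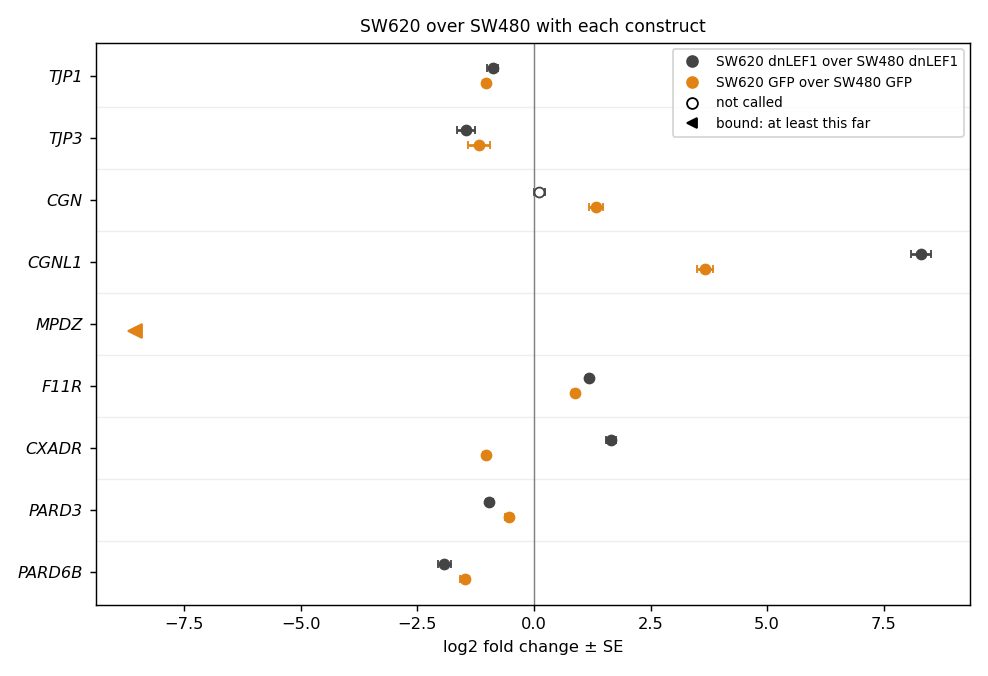
Log2 fold change ± SE of SW620 over SW480 for each member (rows), with dnLEF1 (grey, upper of each pair) and with GFP (orange, lower). The triangle is a bound. CXADR lies at 1.65 with dnLEF1 and -1.03 with GFP, and PARD6B lies below -1 with both constructs.

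The order of the groups differed from gene to gene. For F11R and PARD3 no neighbouring groups in the order overlapped, F11R being highest in SW620 GFP, then SW620 dnLEF1, SW480 GFP and SW480 dnLEF1, and PARD3 running in exactly the opposite order. CXADR was highest in SW480 GFP and lowest in SW480 dnLEF1, with the overlapping SW620 groups between them. CGNL1 was highest in the SW620 groups, which overlapped, and lowest in SW480 dnLEF1. PARD6B and TJP1 were higher in both SW480 groups than in either SW620 group. For PARD6B the SW620 groups overlapped each other, and for TJP1 the constructs of each line did. For CGN, SW480 dnLEF1 overlapped SW620 dnLEF1, which overlapped SW620 GFP, and SW480 GFP lay below them. For TJP3 each group overlapped the next.

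Levels were set against each other per kilobase of exon (all exons of a gene in GENCODE 44 merged, an annotation that may differ from the one the counts were made with). In SW480 dnLEF1 cells TJP1 led with 15.8 ± 2.96 CPM per kb, and in SW480 GFP cells with 17.2 ± 1.27. F11R followed in SW480 with 10.4 ± 0.735 CPM per kb with dnLEF1 and 15.2 ± 0.588 with GFP. In SW620, F11R led with 23.5 ± 0.460 CPM per kb with dnLEF1 and 28.0 ± 0.869 with GFP, ahead of TJP1 at 8.50 ± 0.924 and 8.47 ± 0.745 (SD, n = 4 each). CXADR ranked 5 of 9 in SW480 dnLEF1, with 2.14 ± 0.281 CPM per kb, where it overlapped CGN, and 3 of 9 in SW480 GFP, with 14.2 ± 0.784, where it overlapped F11R. CGNL1 was at 0.0188 ± 0.0102 CPM per kb in SW480 dnLEF1 and 0.568 ± 0.204 in SW480 GFP, below all members but MPDZ with dnLEF1, and last but overlapping CGN with GFP. In SW620 it was at 6.14 ± 0.915 with dnLEF1 and 7.15 ± 0.579 with GFP, above PARD3, PARD6B, CGN and TJP3.

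**Figure D4:**
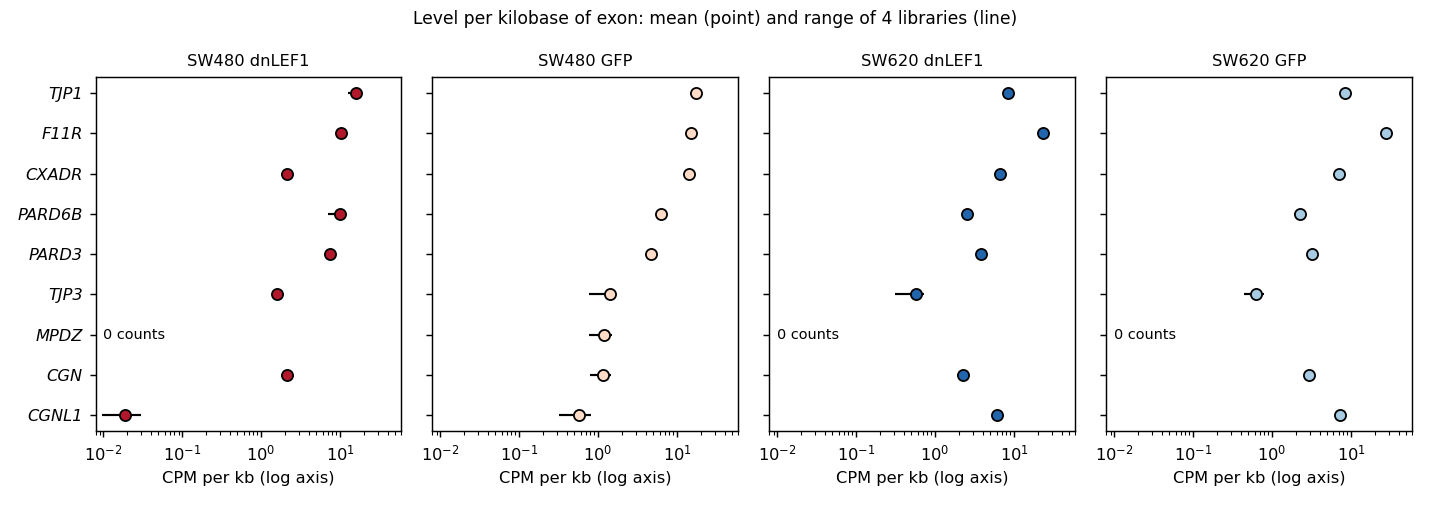
Level of each member in CPM per kilobase of exon (horizontal log axis) in the 4 groups (panels). Points are means and lines the range of 4 libraries. TJP1 is on top in SW480 and F11R in SW620, and MPDZ has no count in 3 of the panels.

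Other genes of tight junctions and polarity moved in both directions as well. Of a list of 45 in the tables, 41 were tested in SW480, where 11 rose, 10 fell and 20 did not pass. Over all genes tested 24.2% were called higher and 24.4% lower, so calls in both directions are common in this comparison. The median log2 change of the list was 0.04, against 0.00 over all genes. RAB13, a small GTPase that brings claudins and occludin to the junction, rose to 102 ± 6.60 CPM in SW480 dnLEF1, against 50.4 ± 2.76 CPM in SW480 GFP (log2 1.02 ± 0.07, edgeR adjusted p = 3.62e-08). INADL (now PATJ), a multi-PDZ scaffold of the Crumbs complex and the closest relative of MPDZ, fell to 24 ± 2.41 CPM, against 46.3 ± 2.53 CPM (log2 -0.94 ± 0.08, edgeR adjusted p = 3.12e-07). The angiomotin family gene AMOTL1 rose 1.76-fold and ARHGEF18 1.27-fold. LLGL2, a basolateral polarity protein, fell 1.33-fold and MARVELD2, tricellulin, 1.5-fold. Of 19 polarity genes tested 3 rose and 4 fell, and of 17 scaffolds and adaptors 6 rose and 5 fell. Of 5 JAM-like adhesion genes besides F11R and CXADR 2 were tested. ESAM rose (log2 0.72 ± 0.17, edgeR adjusted p = 0.00337), and JAM3 did not pass (log2 -0.40 ± 0.27, edgeR adjusted p = 0.234). Both are named here after their values were seen.

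In SW620, 36 of the 45 were tested and 1 rose, 4 fell and 31 did not pass, beside 6.03% higher and 2.43% lower over all genes. OCLN, occludin, stood at 48.4 ± 1.98 CPM in SW620 dnLEF1, against 34.2 ± 3.99 CPM in SW620 GFP (log2 0.50 ± 0.08, edgeR adjusted p = 0.00112). MARVELD3 fell to 4.31 ± 1.09 CPM, against 8.71 ± 1.24 CPM (log2 -1 ± 0.17, edgeR adjusted p = 0.00142). CRB3, the apical Crumbs protein, fell 1.37-fold, TIAM1, a Rac exchange factor that binds PARD3, 1.26-fold and LLGL2 1.2-fold. Between the GFP groups 41 of the list were tested, and 11 were higher and 20 lower in SW620. Over all genes 37.7% were higher and 40.3% lower there. Among those with the smallest adjusted p between the lines, AMOTL1 had no count in any SW620 library. Against a floor of 3 counts over the group, it was at least 1120-fold below SW480 dnLEF1 for dnLEF1 cells. For GFP cells it was at least 631-fold below SW480 GFP. PARD3B, the paralogue of PARD3, averaged 0.469 ± 0.153 CPM in SW620 GFP and 13.4 ± 1.56 CPM in SW480 GFP (log2 -4.82 ± 0.19, edgeR adjusted p = 1.09e-11). LLGL2 was 3.01-fold and MAGI3, a PDZ scaffold, 2.84-fold higher in SW620 GFP. MPP5 (now PALS1), the Crumbs adaptor, was 2.26-fold and AMOTL2 7.43-fold lower. Some genes with a larger adjusted p had larger folds. JAM3, at 0.949 CPM in SW480 GFP, was at least 26.9-fold lower in SW620 GFP against the same floor. MAGI2 was 15.9-fold and ESAM 9.16-fold lower. JAM3, MAGI2 and ESAM are named here after their values were seen.

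Neighbouring genes on the chromosome were read beside each member, up to 10 tested genes on either side. Around CGNL1 the median log2 change of the 20 nearest tested genes was -0.04 in SW480, against -4.86 for CGNL1 itself, and none of them changed by as much as 3 on the log2 scale. Around CGN the median was 0.03 and around PARD6B -0.08, while both genes rose. PARD3 rose, while its 20 neighbours had a median of -0.33, with 16 estimates below 0 and 14 of them called lower. Around TJP1 the median was -0.31, with 19 of 20 estimates below 0 and 12 called lower. Around TJP3 the median was 0.22, with 18 of 20 estimates above 0 and 8 called higher. Among all genes tested in SW480 24.2% were called higher and 24.4% lower. In SW620 every member's neighbours had a median between -0.04 and 0.04.

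MPDZ and CXADR each had neighbours with almost no counts in SW480 dnLEF1, where CXADR itself kept 1183 counts. These were picked after their values were seen, as neighbours that changed by at least 3 on the log2 scale. Of the 176 neighbours 9 did (5.11%), 7 of them lower, against 2.0% of all tested genes. The other 3 were GREM1 near TJP1 and PDCD1LG2 near MPDZ, both higher, and KCNJ10 near F11R, lower. TYRP1, the tested gene next to MPDZ, had 0 counts in SW480 dnLEF1 and 116 in SW480 GFP (1.31 ± 0.563 CPM). PTPRD, a receptor phosphatase gene beside it, had 1 count in SW480 dnLEF1 and 502 in SW480 GFP (5.65 ± 2.21 CPM), and 0 and 1 counts in SW620 dnLEF1 and SW620 GFP. SH3GL2 had 18 counts in SW480 dnLEF1 and 212 in SW480 GFP, and none in SW620. Beside CXADR, the enteropeptidase gene TMPRSS15 had 2 counts in SW480 dnLEF1 and 2995 in SW480 GFP (33.4 ± 7.73 CPM), and 0 and 2 counts in SW620 dnLEF1 and SW620 GFP. CHODL had 1 count in SW480 dnLEF1 and 125 in SW480 GFP, and MIR99AHG 1 and 198. CHODL was present in both SW620 groups, at 5.17 ± 0.388 CPM with dnLEF1 and 4.55 ± 0.699 CPM with GFP. Over all 20 neighbours of MPDZ the median log2 change was -0.12, with 5 called higher and 8 called lower. Over the 16 neighbours of CXADR the median was -0.30, with 13 estimates below 0, 1 called higher and 9 called lower. Of all genes tested in SW480 24.2% were called higher and 24.4% lower. The part of these neighbours' changes in the MPDZ and CXADR folds was not tested.

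**Figure D5:**
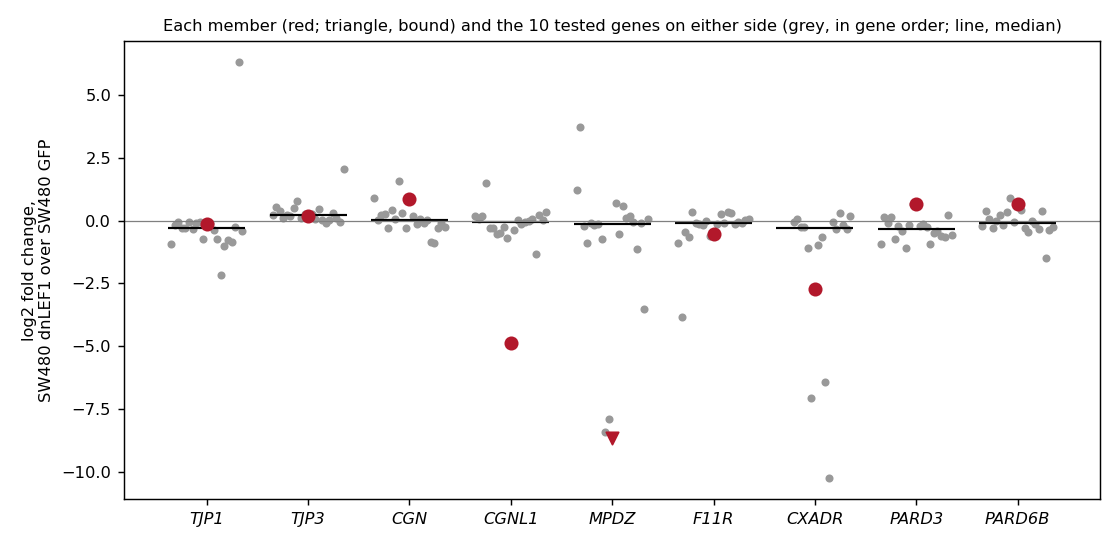
Log2 fold change of SW480 dnLEF1 over SW480 GFP (vertical axis) for each member (red circle, or red triangle for the MPDZ bound) and the up to 10 tested genes on either side (grey, in gene order), with their median as a line. Grey values are fitted, and those of genes with almost no counts in dnLEF1 are not bounds. CGNL1 stands alone below its neighbours, while MPDZ and CXADR have 2 or more grey points far below 0.

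The genes whose levels followed a member most closely over the 16 libraries were sought among 10983 genes with a mean of at least 5 CPM, by Pearson's r of log2 CPM. The libraries fall into 4 groups, so r mostly reflects the group means and is given as a description. MPDZ was followed by TMPRSS15 (r = 0.999) and GABRG1 (r = 0.999), which averaged 0.0210 and 0.0116 CPM in SW480 dnLEF1 and 33.4 and 22.1 CPM in SW480 GFP. CGNL1 was followed by the guidance receptor gene ROBO1 (r = 0.998), at 10.8 CPM in SW480 dnLEF1 and 53.2 in SW480 GFP, and 292 in SW620 dnLEF1 and 303 in SW620 GFP. TOX3 and PHYHIPL followed it too (r = 0.997 each). CXADR was followed by PCDH9 (r = 0.991), a protocadherin gene with no count in SW480 dnLEF1 and 44.3 CPM in SW480 GFP, against 7.72 in SW620 dnLEF1 and 8.17 in SW620 GFP. PARD6B was followed by DDAH1 and TGFB2 (r = 0.991 each), PARD3 by HCP5 (r = 0.984), F11R by TDG (r = 0.993), TJP1 by ATP11B (r = 0.993), TJP3 by FBXL20 (r = 0.954) and CGN by SAT1 (r = 0.933).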

How the data were processed

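Polyadenylated RNA of SW480 and SW620 cells gave 16 libraries in 4 groups, which were read from the labels. Each library's deposited file holds whole-number read counts per gene symbol, with no normalization by the authors. The submitters' processing notes name Trimmomatic, TopHat2, HTSeq and DESeq2 with hg38, and no source used here gives versions, the annotation or the strand setting. The 5 summary lines naming no gene took 20.0% to 24.3% of a library (50.5% in SW620 GFP replicate 3) and entered neither library sizes nor tests.

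Tests were run in edgeR 4.0.16 (R 4.3.3), with TMM, filterByExpr by group, the quasi-likelihood F test and Benjamini-Hochberg adjustment over all genes tested. Pairs of groups were fitted on their own 8 libraries and the line difference on all 16. An SE is the absolute log2 change over the square root of F, and 95% intervals use the normal approximation. CPM use TMM library sizes of all 16. Alternatives were DESeq2 1.42.0, its size factors in edgeR, no low-count filter, 1 fit of all 16 libraries, a replicate block, and leaving out each library.

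All 9 members are named, with LEF1 and AXIN2, genes of a fixed junction and polarity list among the 6 called ones with the smallest adjusted p in a comparison, and genes most correlated with a member (up to 3). The members and lists were chosen with earlier results of these data known. Libraries of a group differed by more than counting noise (chi-square per degree of freedom 1.96 to 21.0 over pairs) and were counted separately. The lowest values were those of replicates 2 and 3, at 1.96 in SW480 GFP and 2.27 in SW480 dnLEF1. These libraries were thus more alike than other pairs. Neighbours were placed with GENCODE 44 on hg38, for 91.2% to 91.7% of tested symbols. The code was tested on simulated data.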

Additional observations from a re-analysis of the deposited data

Results flagged for a closer look

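In 1 of 33 sets of 4 libraries with counts, a library stood apart from the rest. TJP3 was at 3.04 CPM in SW480 GFP replicate 1, against 6.28 to 6.75 CPM in the other 3, and chance flags about 1 in 20 such sets. The same library was the lowest of its group for CGN, CGNL1 and MPDZ, at 5.17, 2.80 and 8.77 CPM. It was the highest of its group for CXADR and PARD3, at 89.8 and 37.5 CPM.

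The dnLEF1 effect differed between the lines by edgeR's interaction test for 5 members, given as SW620 minus SW480 on the log2 scale. The differences were 4.64 for CGNL1, 2.68 for CXADR and 0.30 for F11R, and -1.23 for CGN and -0.42 for PARD3. CGN had the opposite sign in the 2 lines, lower with dnLEF1 in SW620 (-0.37, not called by edgeR) and higher in SW480 (0.87, called).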

How the results depend on the processing

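Of 602 recomputed member values, 586 kept their direction and their side of the threshold, 10 crossed to called, none lost its call and 6 turned direction. The 6 were changes near 0. TJP3 in SW480 was -0.03 without SW480 GFP replicate 1 and at most 0.28 with any 1 library left out. In SW620, TJP1 ran from -0.05 to 0.06 and TJP3 from -0.25 to 0.09 with 1 library left out. In SW620, members called lower were 2 with DESeq2 size factors, 2 with the DESeq2 Wald test, 2 with no low-count filter, and 1 to 2 with 1 library left out, the added gene being CGN. The line difference of PARD6B crossed to called 2 times. Same-numbered libraries did not deviate together in every pair (correlations -0.26 to 0.39 over all pairs of groups), so the numbers were not taken as pairing. Between SW620 dnLEF1 and SW620 GFP the correlations were 0.39, -0.02, 0.22 and 0.24 for replicates 1 to 4. With the replicate number as a block, 3 members were called lower in SW620 (F11R, CGN with edgeR adjusted p = 0.00181 and CGNL1 with 0.0385) and 1 higher (PARD3, edgeR adjusted p = 0.0234), and 676 genes in all were called lower, against 324 without it. The block moved no other member's call. Counts limit CGNL1 and MPDZ in SW480 dnLEF1, at 15 and 0 reads in all.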
